A study of Mus musculus with 6 samples.

Results

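The genes followed here were among the most strongly lower ones in TG-PKR1 hearts and are seldom discussed in the heart, and every probe that the array carries for them was read. They are Acsm3, Cdo1, Aacs, Aspg (named A530050D06Rik on the array), Vat1l (named AI427515) and Tmem45b. They make 6 of the 14037 genes with a probe among the 20000 brightest, and they have 9 probes, of which 7 were among these 20000. The genes were selected on the TG-PKR1 minus WT difference itself, so that their differences are given as a description and carry no test. The label that joined them as metabolic genes holds for 4 enzymes, Acsm3, Cdo1, Aacs and Aspg, while Vat1l is known only as a relative of quinone oxidoreductases and Tmem45b as a membrane protein.

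All mice were males of 12 weeks, 3 of them WT and 3 TG-PKR1, and the RNA of each heart was hybridized to 1 single-dye Agilent array. TG-PKR1 mice overexpress PKR1, the prokineticin receptor-1, from the αMHC promoter, which drives the transgene in cardiomyocytes alone, and the labels name no other allele and no treatment. The study compared the hearts of both genotypes to explore events in the signaling of cardiomyocytes to other heart cells. Replicates were separate samples, numbered here in the order of the labels, and the numbers pair no mice.

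The enzymes among the members act in different pathways. Acsm3 is a mitochondrial acyl-CoA synthetase that activates medium-chain fatty acids. Aacs, acetoacetyl-CoA synthetase, activates the ketone body acetoacetate in the cytosol for the synthesis of fatty acids and sterols. Cdo1, cysteine dioxygenase, oxidizes cysteine to cysteine sulfinate, the first step toward taurine. Aspg is an asparaginase, which releases ammonia from asparagine and leaves aspartate. Adipocytes and liver are known for Cdo1 and Aacs expression, and Adipoq, which encodes the adipocyte hormone adiponectin, served as the reference pattern.

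The members were lower together, and the sequence just upstream of the start site is shown for the 4 that the RefSeq promoter table (GRCm38.p6) lists, to set them side by side. Each run is 250 bases long, 5′ to 3′ on the plus strand, and ends at the base before the start site. The positions are chr7:119760673-119760922 for Acsm3, chr5:125475623-125475872 for Aacs, chr12:112106433-112106682 for Aspg and chr8:114205390-114205639 for Vat1l. Capitals mark matches to the motifs searched.
Acsm3: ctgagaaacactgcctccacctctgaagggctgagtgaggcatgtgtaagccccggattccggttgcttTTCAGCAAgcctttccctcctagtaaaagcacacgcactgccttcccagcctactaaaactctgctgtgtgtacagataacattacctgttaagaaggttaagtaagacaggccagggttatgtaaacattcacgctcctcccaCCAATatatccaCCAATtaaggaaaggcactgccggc
Aacs: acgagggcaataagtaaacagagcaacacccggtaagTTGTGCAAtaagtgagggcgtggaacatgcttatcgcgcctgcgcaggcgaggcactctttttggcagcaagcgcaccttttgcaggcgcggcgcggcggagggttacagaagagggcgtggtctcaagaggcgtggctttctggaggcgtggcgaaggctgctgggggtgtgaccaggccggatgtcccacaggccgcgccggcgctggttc
Aspg: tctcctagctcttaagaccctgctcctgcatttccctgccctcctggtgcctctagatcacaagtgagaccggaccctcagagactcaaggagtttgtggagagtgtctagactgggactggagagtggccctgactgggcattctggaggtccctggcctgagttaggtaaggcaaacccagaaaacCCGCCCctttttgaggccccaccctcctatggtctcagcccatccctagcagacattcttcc
Vat1l: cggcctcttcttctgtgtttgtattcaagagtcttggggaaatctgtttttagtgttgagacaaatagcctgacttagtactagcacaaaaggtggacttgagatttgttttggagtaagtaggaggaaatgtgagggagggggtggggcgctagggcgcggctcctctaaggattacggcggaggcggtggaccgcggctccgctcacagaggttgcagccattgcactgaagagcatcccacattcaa

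On both strands, 7 motifs were searched: the GC box GGGCGG, the nuclear receptor core AGGTCA, a direct repeat 1 of that core with 1 free base between its copies, the C/EBP core TTGCNNAA, the E-box CACGTG, the CCAAT box and the TATA box TATAAA. The C/EBP core was found in Acsm3, 181 bases before the start, and in Aacs, 213 bases before it, against 9.56% of all 32851 promoters of this length. Acsm3 held CCAAT at 37 and at 25 bases before the start, a motif found in 33.8% of all promoters. Aspg held the GC box at 62 bases, as did 32.7% of promoters, and Vat1l held none of the 7. No motif was shared by all 4, and the nuclear receptor core, present in 14% of promoters, was in 0 of 4, as was the direct repeat, found in 0.0335%. The 4 runs also differed in base composition. Aacs had 22 CpG dinucleotides and a GC content of 62.4%, Vat1l 10 and 51.6%, Acsm3 5 and 49.2%, and Aspg 2 and 56.4%, against a median of 6 CpG and 52.4% GC over all promoters.

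The unit throughout is the log2 median spot signal after loess normalization, without background subtraction. Each array had 19650 to 24923 probes that the extraction software marked as well above background. The arrays of WT replicate 1 and TG-PKR1 replicates 2 and 3 had saturation limits of 559351 to 569418 in their headers, and the other 3 had limits of 65265 to 65266. These are called the wider and narrower range. The 75th percentile of signal over local background was 11.4 to 14.1 on the wider-range arrays and 2.08 to 3.97 on the narrower-range arrays. WT replicate 2 and TG-PKR1 replicate 1 were taken to lie on the same slide, from a number that their labels share. The Prokr1 probe, for the gene of PKR1, was well above background on 0 of 6 arrays, so it gave no check of the genotype. All 12 cardiomyocyte markers were well above background on all 6 arrays.

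Of the 20000 probes tested with limma, 19 (0.095%) had an adjusted p under 0.05 and a lower value in TG-PKR1 hearts, and 0 (0%) had a higher one. At an unadjusted p under 0.05 there were 475 probes, 143 of them higher. The count of 19 depended on the form of the loess, and other forms gave 1 to 19. It was 0 with the scan range as a block, in the table of the authors, with the median signal scaled to the 75th percentile, and without any 1 of WT replicates 1 and 3 and TG-PKR1 replicates 1 and 3. Lower values in every TG-PKR1 heart than in every WT heart were seen for 545 (2.73%) of the 19955 probes measured on all 6 arrays. The reverse, every TG-PKR1 heart above every WT heart, was seen for 534 probes. All 6 members were of the lower kind at their brightest probe, which the selection fixes. The median of their 6 differences was -1.69, against a median of 0.03 over all probes kept.

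**Figure D1:**
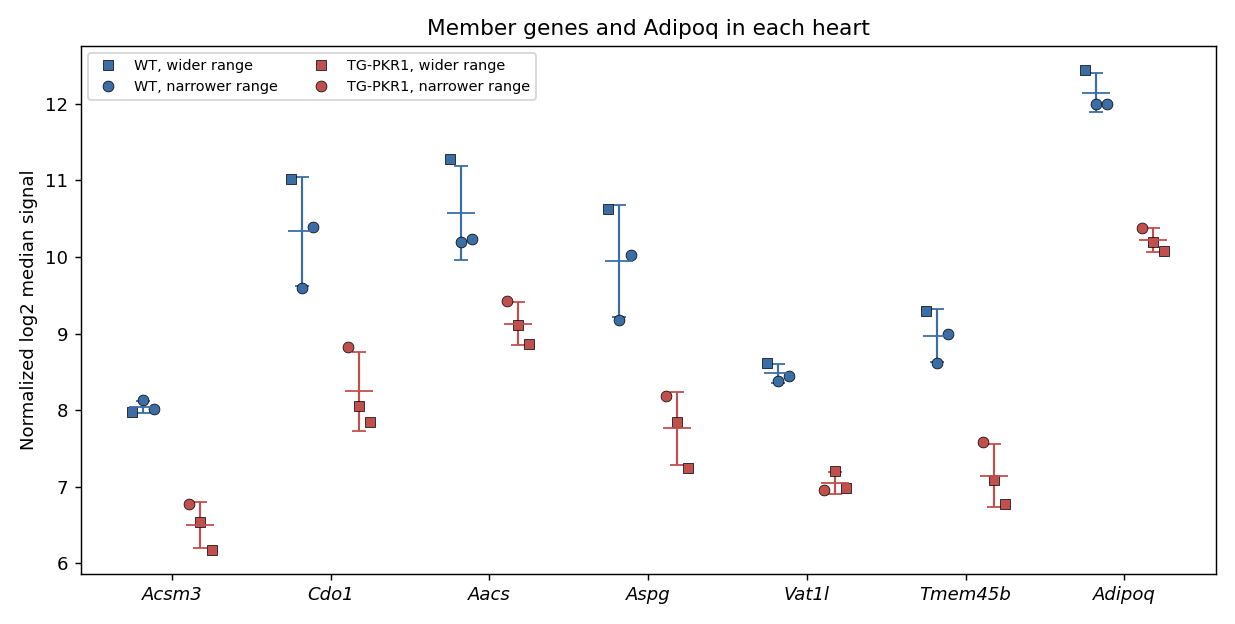
Normalized log2 median signal (vertical axis) of the brightest probe of each member and of Adipoq in every heart, WT in blue and TG-PKR1 in red, squares for wider-range and circles for narrower-range arrays, with mean and SD (n = 3). Each TG-PKR1 heart lies below each WT heart for all 7 genes, and Vat1l and Acsm3 have the tightest WT values, with SDs of 0.12 and 0.08.

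Cdo1 was at 11.02, 9.60 and 10.39 in WT replicates 1, 2 and 3 and at 8.83, 8.06 and 7.85 in TG-PKR1 replicates 1, 2 and 3. The groups did not overlap, but the gap between them, 0.77, was smaller than the range of 1.42 within WT hearts. Its mean was 10.34 ± 0.71 (SD, n = 3) in WT and 8.24 ± 0.52 in TG-PKR1 hearts, a log2 difference of -2.09, which leaves 23.5% of the WT signal. The probe lies on chromosome 18 of mm8, from 46839097 to 46839156, on the minus strand.

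Aspg has 2 probes on chromosome 12. The brighter one (112575292 to 112575351) was at 10.63, 9.18 and 10.02 in WT hearts and at 8.19, 7.85 and 7.25 in TG-PKR1 hearts. The difference was -2.18, or 22.0% of the WT signal, with SDs of 0.73 and 0.47. The other probe (112574471 to 112574530) lies 821 bases upstream of it. It read 7.35, 6.69 and 6.67 in WT hearts and 6.6, 6.6 and 6.34 in TG-PKR1 hearts, a difference of -0.39. It was -0.17 without WT replicate 1, -0.88 within the wider-range arrays, -0.08 within the narrower-range arrays and -0.09 within the slide that carried both genotypes. It was -0.79 with the 75th percentile in place of loess and -1.03 with the background-subtracted processed signal. Its groups did not overlap either, but by only 0.07, and only WT replicate 1 stood clear of the other hearts. On its narrower-range arrays its signal was 1.26 to 1.54 times the local background, so that these values are close to the floor.

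Tmem45b, at 31175960 to 31176019 on the minus strand of chromosome 9, was at 9.30, 8.62 and 9.0 in WT hearts and at 7.58, 7.09 and 6.77 in TG-PKR1 hearts. The gap of 1.05 exceeded the range within either group. The difference was -1.83 (WT 8.97 ± 0.34, TG-PKR1 7.15 ± 0.41), or 28.2% of the WT signal. Its signal was 24.5, 2.65 and 6.39 times the local background in WT replicates 1, 2 and 3. In TG-PKR1 replicates 1, 2 and 3 it was 1.87, 4.26 and 4.30 times. With the background-subtracted processed signal, scaled to the 75th percentile, the difference was -2.41.

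Acsm3, at 119575656 to 119575715 on chromosome 7, was at 7.97, 8.13 and 8.02 in WT hearts and at 6.78, 6.54 and 6.18 in TG-PKR1 hearts. Its WT hearts were the closest of any member, with an SD of 0.08, and its TG-PKR1 hearts spread over 0.60. The difference was -1.54, or 34.3% of the WT signal. On the wider-range arrays its signal was 8.33 times the local background in WT replicate 1 and 2.66 and 2.31 times in TG-PKR1 replicates 2 and 3. On the narrower-range arrays it was 2.37 and 3.59 times in WT replicates 2 and 3 and 1.37 times in TG-PKR1 replicate 1. With the background-subtracted processed signal, scaled to the 75th percentile, the difference was -2.78.

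Aacs, at 125806615 to 125806674 on chromosome 5, was at 11.28, 10.19 and 10.24 in WT hearts and at 9.42, 9.11 and 8.86 in TG-PKR1 hearts. WT replicate 1 was more than 1 log2 unit above the other WT hearts, which agreed within 0.05. The difference was -1.44 (10.57 ± 0.62 against 9.13 ± 0.28), and without WT replicate 1 it was -1.08.

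Vat1l has 3 probes on chromosome 8. The brightest (117259848 to 117259907) was at 8.62, 8.38 and 8.45 in WT hearts and at 6.96, 7.21 and 6.98 in TG-PKR1 hearts. Both groups were tight, with SDs of 0.12 and 0.14, and the gap of 1.16 was 4.46 times the larger range. The difference was -1.43, or 37.1% of the WT signal. Its signal was 15.2, 2.25 and 4.53 times the local background in WT replicates 1, 2 and 3 and 1.37, 4.43 and 5.14 times in TG-PKR1 replicates 1, 2 and 3. With the processed signal the difference was -2.29. The second probe, 594 bases upstream, was well above background in 2 of 3 WT hearts and in 0 of 3 TG-PKR1 hearts. It read 6.73, 6.0 and 6.18 against 5.97, 5.81 and 5.98. The groups were apart by only 0.02, and with TG-PKR1 hearts at the detection floor or their own value, whichever was higher, the 3 WT hearts were on average at least 1.29-fold higher. This bound rests on WT replicate 1. The measured difference of -0.39 became -0.17 without WT replicate 1 and -0.03 within the shared slide, but -0.84 within the wider-range arrays, -1.01 with the 75th percentile in place of loess and -2.04 with the processed signal. The third, 1646 bases upstream, was not well above background on any of the 6 arrays, at 5.90 ± 0.04 and 5.88 ± 0.06.

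Array type and slide moved with the size of these differences. The median of the 6 members was -2.33 within the wider-range arrays, -1.27 within the narrower-range arrays and -1.02 within the slide that carried both genotypes, where each genotype has 1 heart. For Cdo1 the 3 values were -3.06, -1.17 and -0.77, and for Aspg they were -3.08, -1.41 and -0.99. Aacs gave -2.30, -0.79 and -0.76, and Tmem45b -2.37, -1.24 and -1.05. Vat1l gave -1.52, -1.45 and -1.42, and Acsm3 -1.61, -1.30 and -1.35. Every value was below 0. In a model with the range as a block the median was -1.67. The part of the range in the size of the differences was not tested.

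**Figure D2:**
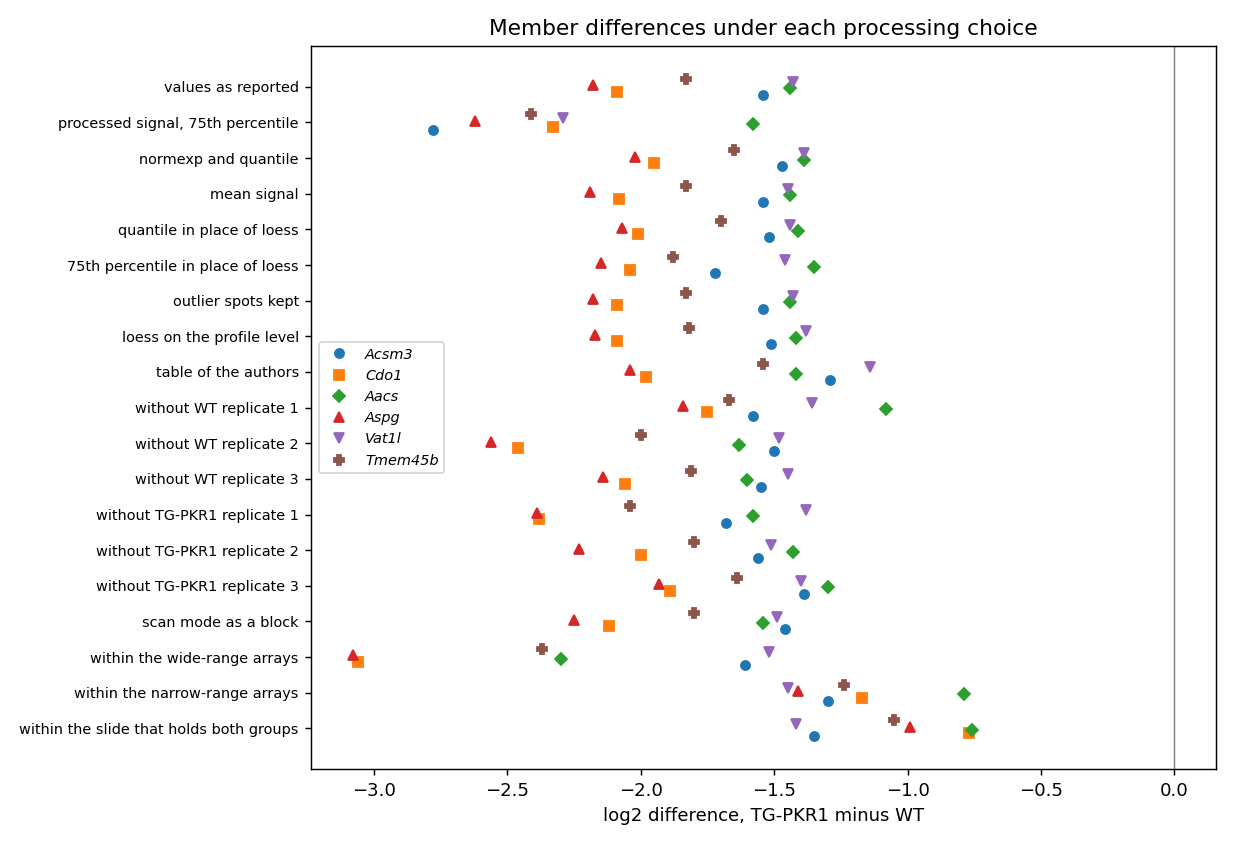
log2 difference, TG-PKR1 minus WT, (horizontal axis) for each member at its brightest probe, 1 row per processing choice, array left out or subset of arrays. All values lie between -3.08 and -0.76, with Aspg and Cdo1 moving most between the wider-range and narrower-range arrays and Vat1l least.

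Next, genes of steps next to each member were read from the same limma fit, adjusted over all 20000 probes. None of the genes kept from the functional lists passed an adjusted p under 0.05 in either direction. At an unadjusted p under 0.05, 5 of the 54 genes kept (Acss2, Csad, Asns, Slc1a3 and Mecr) were lower and 0 were higher, against 1.66% lower and 0.715% higher over all probes. Over all probes, the TG-PKR1 mean was the lower one in 41.8%.

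Cysteine dioxygenase makes cysteine sulfinate, which Csad decarboxylates to hypotaurine. Csad was at 10.24, 9.88 and 10.35 in WT hearts and at 9.39, 9.47 and 9.52 in TG-PKR1 hearts. The groups did not overlap, and the difference was -0.70 (SE 0.17), with a limma adjusted p of 0.589. Fmo1, which oxidizes hypotaurine to taurine, had -0.41 (SE 0.18, limma adjusted p = 1.0). Ado, the dioxygenase that makes hypotaurine from cysteamine, had 0.01 (SE 0.17), and Slc6a6, the taurine transporter, 0.32 (SE 0.41). Of 15 genes of cysteine, taurine and glutathione metabolism kept, 6 had a lower mean, and their median was 0.04.

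For asparagine, Asns, asparagine synthetase, was at 9.91, 9.95 and 9.57 in WT hearts and at 8.66, 9.18 and 8.36 in TG-PKR1 hearts. Its groups did not overlap, and its difference was -1.08 (SE 0.23), with a limma adjusted p of 0.348. Slc1a3, a transporter of glutamate and aspartate, was at 8.33, 8.26 and 7.86 and at 7.08, 7.35 and 6.92, a difference of -1.04 (SE 0.19, limma adjusted p = 0.184). Asrgl1, another asparaginase, had -0.25 (SE 0.31), with overlapping hearts. The median of the 12 genes of this list was 0.06, and 4 of 12 had a lower mean.

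Among acyl-CoA synthetases, Acsm1, Acsm2 and Acsm4 of the same family were well above background on 0 of 6 arrays, and Acsm5 had -0.20 (SE 0.15). The largest differences were those of Acsl5 (-0.64, SE 0.33), Acss2 (-0.57, SE 0.17) and Acsl3 (-0.42, SE 0.19), each with a limma adjusted p of 1.0. Acss2, which activates acetate in the cytosol, was lower without overlap, at 10.08, 9.94 and 10.48 against 9.59, 9.58 and 9.63. Of the 10 genes kept, 8 had a lower mean, with a median of -0.16.

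The genes of ketone body use, to which Aacs belongs, were close to equal between the genotypes. Oxct1, which carries acetoacetate into oxidation in mitochondria, had a difference of 0.00 (SE 0.21) and Bdh1, which interconverts the ketone bodies, 0.06 (SE 0.16). The largest differences were -0.30 for Acat2 (SE 0.29), -0.29 for Hmgcs1 (SE 0.21) and 0.27 for Slc16a1 (SE 0.24), and the median of the 10 genes was -0.04. Vat1, the relative of Vat1l, had -0.20 (SE 0.28). The list of Vat1l held 8 quinone oxidoreductases and related reductases. Their largest differences were -0.37 for Mecr (SE 0.15), -0.25 for Cryz (SE 0.17) and 0.25 for Rtn4ip1 (SE 0.26), with a median of 0.05. Tmem45a, the relative of Tmem45b, had -0.04 (SE 0.14).

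**Figure D3:**
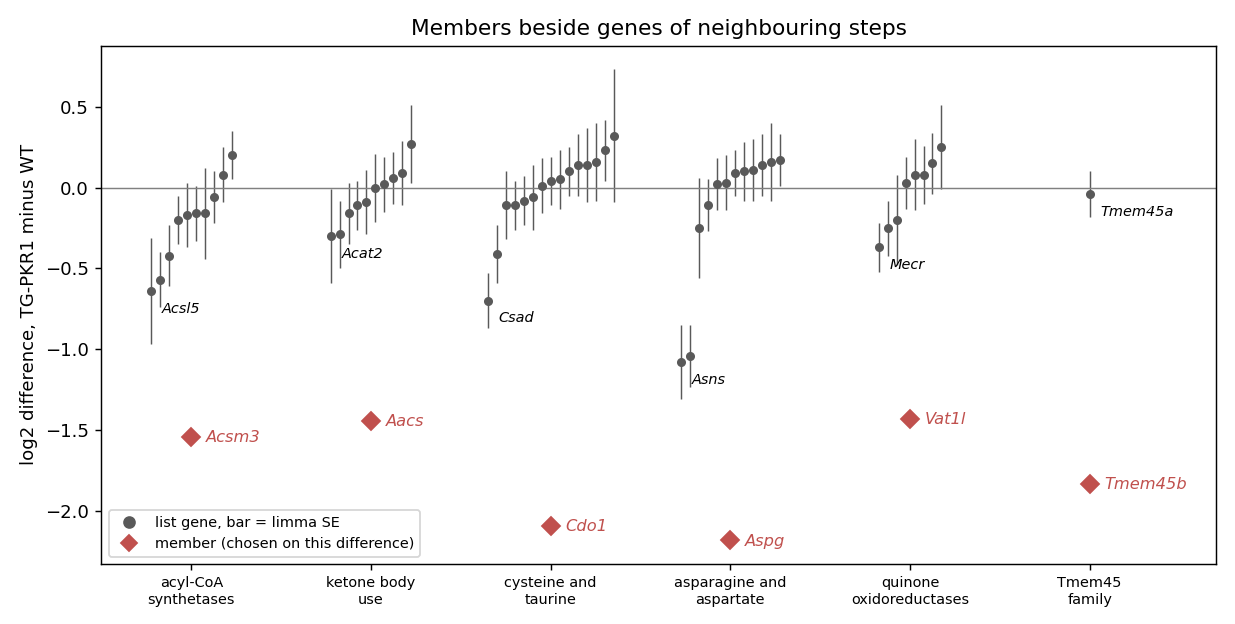
log2 difference, TG-PKR1 minus WT, (vertical axis) for the genes of each functional list with a probe among those kept (grey, bars are limma SEs) and for the member that belongs to it (red, no error bar, since members were chosen on this value). Asns (-1.08) and Slc1a3 (-1.04) are the only list genes below -1, and none reaches the member of its list.

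The 2 nearest protein-coding genes on each side of each member in the RefSeq gene table gave 24 genes, of which 14 were kept. None passed the threshold, 8 had a lower mean, and the median was -0.03, with a range from -0.39 for Ap3s1 beside Cdo1 to 0.13 for Nfrkb beside Tmem45b. Tmed7, Eif1a and Atg12, the other neighbours of Cdo1, had -0.08, -0.12 and -0.16. Rexo5 beside Acsm3 had -0.31 (SE 0.18), while Thumpd1 and Eri2 had 0.02 and 0.03. Beside Aacs, Dhx37 had 0.06 and Bri3bp -0.01. Kif26a and A530016L24Rik beside Aspg had -0.07 and 0.10, Nudt7 beside Vat1l had -0.05, and Arhgap32 beside Tmem45b had 0.02. A literal count of any gene, noncoding ones included, left 8 genes kept, with a median of -0.08.

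Markers of adipocytes moved in the same direction as the members. Of 15 white and general adipocyte markers kept, 13 had a lower mean, 4 passed the limma test and the median was -0.98, and the summed level ran from 17.98 to 18.56 in WT and from 17.66 to 17.83 in TG-PKR1 hearts. The 4 were Plin1 (-2.25, SE 0.23, adjusted p = 0.0339), which coats lipid droplets, Cidec (-2.02, SE 0.25, adjusted p = 0.0387), Rbp4 (-1.96, SE 0.19, adjusted p = 0.0339) and Adipoq (-1.93, SE 0.18, adjusted p = 0.0339). The brightest genes in the summed level of this list were Fabp4 (-0.72, SE 0.19) and Lpl, which had a difference of 0.02 (SE 0.21). Adig was well above background on 0 arrays and Lep on 2. Of 9 brown adipocyte markers kept, 8 had a lower mean, Ucp1 passed (-3.23, SE 0.42, adjusted p = 0.0445) and the median was -1.09. Ppargc1a had 0.49 (SE 0.28), Cox8b -0.08 (SE 0.21) and Prdm16 -0.27 (SE 0.16), each with overlapping groups. Zic1 was well above background on 1 array. The summed level of the brown list was 17.79 to 18.44 in WT and 17.60 to 17.96 in TG-PKR1 hearts. Most of it came from Cox7a1, which is abundant in heart muscle and had a difference of -0.07 (SE 0.25). Of these 5 calls, 2 (Adipoq and Rbp4) were made with the loess fitted on the profile level. None were made with the scan range as a block, in the table of the authors, or when WT replicate 1, WT replicate 3, TG-PKR1 replicate 1 or TG-PKR1 replicate 3 was left out. The summed level of the 12 cardiomyocyte markers was 19.87 to 20.33 in WT and 19.87 to 20.62 in TG-PKR1 hearts. In RNA of whole hearts, fewer cells of a type and less RNA per cell cannot be told apart, and the part of adipocyte content in the members' differences was not tested.

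Cdo1 and Aacs are also known from liver and kidney. The hepatocyte markers Apoa1, Ttr, Fga and Cyp7a1 were well above background on 0 of 6 arrays and Alb on 1, and the kidney tubule markers Umod, Slc34a1, Slc12a1 and Kap on 0. Aqp2, Slc22a6 and Miox of the kidney list were well above background on all 6 arrays, with differences of -0.31 (SE 0.27), -0.03 (SE 0.16) and 0.00 (SE 0.16). Ahsg and Tat of the hepatocyte list were well above background on all 6 arrays, with differences of -0.15 (SE 0.34) and 0.02 (SE 0.22). No gene of the hepatocyte, kidney tubule, cardiomyocyte, skeletal muscle, thymus and T cell or erythroid lists passed the limma test or had an unadjusted p under 0.05. Their medians were -0.06 (2 genes kept), -0.03 (3), 0.07 (12), 0.04 (3), 0.11 (2) and -0.12 (4).

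Across the 6 hearts, Pearson's r to Adipoq was 0.99 for Vat1l, 0.98 for Tmem45b, 0.97 for Acsm3, 0.96 for Aspg and 0.95 for Cdo1 and Aacs, and 0.0551% to 0.326% of probes reached such values. The order of the members changed with the processing. In the table of the authors Vat1l had 0.86 and Tmem45b 0.89, and with the 75th percentile in place of loess Acsm3 had 0.75. These r hold the genotype difference by which members were chosen, since the 2 genotypes form separate clusters, and are a description over 6 points. The deviations from the group means leave out the mean difference, but not a difference that changes with the range of the array. There, r to Adipoq was 0.99 for Aacs, 0.86 for Cdo1, 0.85 for Aspg and 0.84 for Tmem45b, reached by 0.0652%, 4.12%, 4.73% and 5.21% of probes. It was 0.47 for Vat1l and 0.32 for Acsm3, which 31.6% and 40.5% of probes reached. The members' mean deviation was 0.41, -0.37 and -0.04 in WT replicates 1, 2 and 3. In TG-PKR1 replicates 1, 2 and 3 it was 0.32, 0 and -0.32. For Adipoq the values were 0.30, -0.14 and -0.15, and 0.16, -0.02 and -0.15. WT replicate 1 and TG-PKR1 replicates 2 and 3 were the wider-range arrays. The part of the range in the r of these deviations was not tested.

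**Figure D4:**
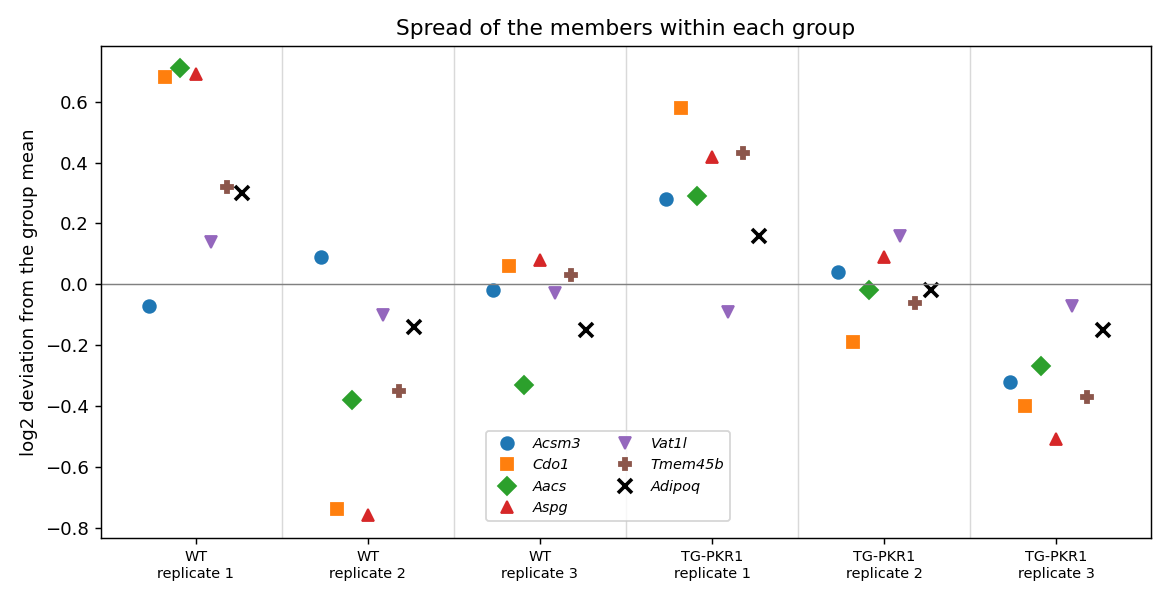
Deviation of each member and of Adipoq from its group mean (vertical axis, log2) in each heart, with 1 symbol per gene. Cdo1 and Aspg stand at 0.68 and 0.69 in WT replicate 1 and at -0.74 and -0.76 in WT replicate 2, while Vat1l and Acsm3 stay within 0.32 of their means.

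Among themselves, Cdo1, Aspg and Tmem45b deviated together, with r of 0.94 to 0.96 within groups, whereas Acsm3 and Vat1l gave -0.14. WT replicate 1 was the highest WT heart for 5 of 6 members and WT replicate 2 the lowest for 5. TG-PKR1 replicate 1 was the highest TG-PKR1 heart for 5 and TG-PKR1 replicate 3 the lowest for 5. Exceptions were Acsm3 in WT hearts and Vat1l in TG-PKR1 hearts. Over 15 pairs, the median r within groups was 0.55, but it was 0.85 with the loess on the profile level, 0.88 in the table of the authors and -0.26 with quantile normalization in place of loess. Over all normalizations r to Adipoq within groups ran from 0.87 to 1.0 for Aacs, 0.69 to 0.89 for Cdo1 and 0.71 to 0.87 for Aspg. For Tmem45b it ran from 0.19 to 0.86, for Vat1l from -0.39 to 0.82 and for Acsm3 from -0.55 to 0.86. The within-group likeness of Acsm3 and Vat1l to Adipoq therefore changed sign with the normalization.

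Of the other genes, the 10 whose pattern over the 6 hearts was most like the mean of the members had r of 0.988 to 0.995. They include Fasn, fatty acid synthase, with a difference of -2.75 (SE 0.36, limma adjusted p = 0.0445), and Gpd1, which makes the glycerol backbone of triglycerides, with -1.99 (SE 0.22, adjusted p = 0.0339). Cidea of brown fat had -1.77 (adjusted p = 0.0603), Pparg, a master regulator of adipocytes, -0.98 (adjusted p = 0.0962), and Acvr1c, an activin receptor of adipocytes, -0.96 (adjusted p = 0.146). The others were Aldh1a7 (-1.52), Ifi27 (-1.36), Arxes2 (-1.23), Kbtbd11 (-0.62) and a probe with no gene symbol, NAP025923-1 (-1.54, adjusted p = 0.0387). The calls of Fasn, Gpd1 and NAP025923-1 were lost in the profile-level loess forms, where the 2 probes called were Adipoq and Rbp4 (Rbp4 alone at degree 2), and in every fit that called 0 probes, among them those with the scan range as a block, on the table of the authors and without any 1 of 4 hearts (WT replicates 1 and 3, TG-PKR1 replicates 1 and 3). Since likeness to the members includes the genotype difference, a lower level in all 10 follows from the choice. For single members, the nearest patterns were those of Gys2 (r = 0.993), Ntrk2 and Pygl for Acsm3, Akr1c13 (r = 0.999), Aldh1a7 and Pla2g7 for Cdo1, and Tmeff2 (r = 0.995), Slc27a2 and Slc36a2 for Aacs. For Aspg they were Aldh1a7 (r = 0.995), Akr1c13 and Atat1, for Vat1l Rbp4 (r = 0.998), Arxes1 and Hacd2, and for Tmem45b Fasn (r = 0.999), Gpd1 and Ifi27.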

How the data were processed

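Hearts of 3 WT and 3 TG-PKR1 mice were profiled on 1-colour arrays. The authors deposited scanner intensity values per spot, extracted with Agilent Feature Extraction 9.5.1.1 and not normalized between arrays, and a table of log2 values that the authors made by LOWESS against a median profile. Probe positions are those of mm8. The members and gene lists were chosen with earlier results of these data known.

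Control and outlier spots were left out. The log2 median intensity was normalized by loess (span 0.3, 4 iterations) of each array's difference from the median profile on the mean of array and profile, repeated spots were averaged by probe, and probes were filtered to the 20000 of highest median level. The axis of this loess was settled after counts of called probes had been seen. A first form, fitted on the profile itself, gave 2 lower probes, and 8 forms were run in all, with 1 to 19. The methods of the study name no axis, so a match to the fit of the authors is not shown. The form kept is the usual one for such plots and was chosen to match an earlier re-analysis of these data. It is also the form with the most calls, together with the one that averages spots first. Against the table of the authors, the form of degree 2, with 1 call, was closest (r = 0.976, against 0.967 for the form kept).

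Genotypes were compared with limma 3.58.1 in R 4.3.3, with Benjamini-Hochberg adjustment over all probes kept, at 0.05. The methods' SAM, whose null reassigns hearts, was not run. The smallest two-sided exact permutation p for 3 against 3 is 0.1. Members were not tested. The brightest probe stood for a gene. Functional lists were those for acyl-CoA synthetases, ketone bodies, cysteine, asparagine, quinone oxidoreductases with related reductases, and Tmem45. Marker lists were those for white and brown adipocytes, hepatocytes, kidney tubule, cardiomyocytes, skeletal muscle, thymus and T cells, and erythroid cells. Named genes were the members, Adipoq, list genes past the threshold, the 3 largest differences of each functional list, genes of adjacent steps, flanking genes, markers near background and the genes nearest in pattern. Of the probes kept, 15334 were named by RefSeq accession, 3039 by symbol and 1627 as in the files. For the limma step, 19955 probes were simulated, 200 of them lower by 2 log2 units, of which 198 were recovered. The same run called 17 unchanged probes, and a separate run with no changed probe called 2. The simulated noise was independent between probes and held no effect of array or scan range. These counts therefore do not give the power or the rate of false calls in the hearts. Figures were drawn with matplotlib 3.10.9. Alternatives were other signals, background corrections, normalizations, filters, eBayes settings, the scan range as a block and leaving out each heart.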

Additional observations from a re-analysis of the deposited data

How the results depend on the processing

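All 144 values of single members under the alternatives were lower in TG-PKR1 hearts, from -0.76 to -3.08, and 126 were within 1 SD of the reported value. All 6 members also had groups without overlap under each other normalization or signal tried. Leaving out hearts or taking a subset of arrays could not change this, and it was not computed for the block, the probe filters and the eBayes setting. Their median was -2.37 with the processed signal at the 75th percentile, -2.33 within the wider-range arrays and -1.02 within the shared slide, and -1.86 to -1.52 when 1 heart was left out.

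The count of lower probes, 19, was the least stable result. It was 0 with the median signal scaled to the 75th percentile (22 with the processed signal scaled so), in the table of the authors, with scan range as a block, with all probes and with the filter on signal well above background (at least 3 arrays). It was 2 with the loess on the profile level, also with an exact fit, degree 1 or spots averaged first, and 1 with degree 2. It was 30 with normexp and quantile, 33 with quantile in place of loess and 31 with trend and robust eBayes. Leaving out 1 heart gave 0 to 19, namely 0 without WT replicate 1, WT replicate 3, TG-PKR1 replicate 1 or TG-PKR1 replicate 3, and 8 without TG-PKR1 replicate 2. The 5 list genes past the threshold became 0 under the same 5 settings, 2 or 1 under the profile forms, 9 with normexp and quantile or with trend and robust, 10 with quantile, and 0 to 5 when 1 heart was left out. Higher probes numbered 1 with a profile of complete spots and 0 in all other settings. The cause of these shifts was not tested. The loess forms and protein-coding neighbours were added after seeing the data, and the latter left the 5 calls as they were.

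No paired analysis was possible because replicate numbers are missing from the labels. The numbers in the labels were read as the slide and the place on it, which the labels do not state. Signal close to background limits Acsm3, the brightest probe of Vat1l and, to a lesser degree, Tmem45b in TG-PKR1 replicate 1. It also limits the second probes of Aspg and Vat1l, and arrays of 3 hearts per group limit every value.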
